A study of Homo sapiens with 26 samples.

Results

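Expression of 10 genes of the ERBB system was followed through a small cell lung cancer series: the 4 receptors EGFR, ERBB2, ERBB3 and ERBB4, the EGFR ligands HBEGF, AREG, EREG, TGFA and BTC, and the neuregulin NRG1. They were taken by symbol, and 10 of 10 were found among the 19128 genes of the knockout tables and the 19117 of the parental table. The series holds 26 polyA RNA libraries of established human lines of this cancer. In the knockout experiment 4 lines (NCI-H211, NCI-H526, COR-L311, NCI-H1048) were infected by lentivirus with guide RNAs against the transcription factor POU2F3 (sgPOU2F3, 2 guides per line) or with the control guide sgNeg (1 library per line). Harvest was 4 days after infection in NCI-H211 and NCI-H1048, and 5 days after infection in COR-L311 and NCI-H526. The other 14 libraries are uninfected, exponentially growing parental cells, 1 library per line: those 4 lines, and DMS114, DMS79, NCI-H128, NCI-H146, NCI-H446, NCI-H510, NCI-H524, NCI-H69, NCI-H82 and NCI-H889. NCI-H1048 was the only one of the 4 lines for which the labels name HITES as the sole medium, so that medium and line cannot be told apart for it.

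ERBB receptors are tyrosine kinases of the cell surface that pair with each other after binding a ligand and then feed the RAS-ERK and PI3K pathways. EGFR binds the EGFR ligands, ERBB3 binds neuregulins but has a weak kinase of its own, ERBB4 binds neuregulins and some EGFR ligands, and ERBB2 has no known ligand and serves as a partner of the others. The ligands are made as membrane proteins and are released by sheddases such as ADAM17. In the lung the system is best known from adenocarcinoma, where EGFR and ERBB2 can be drivers, and from repair of the airway epithelium.

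The promoters of 4 of the 5 members past 2-fold in a line are shown, since 3 of them (HBEGF, BTC and ERBB2) were higher together in NCI-H211 after knockout and the fourth, EGFR, was lower in NCI-H1048. Each runs from 250 bases before to 50 bases after a RefSeq start (GRCh38.p14), written 5′ to 3′ on the strand of the gene. Capitals mark a match to the AP-1 search pattern TGANTCA, in which N is any base. It was the only searched motif found in any of the 4.
HBEGF (chr5:140346554-140346853, minus strand): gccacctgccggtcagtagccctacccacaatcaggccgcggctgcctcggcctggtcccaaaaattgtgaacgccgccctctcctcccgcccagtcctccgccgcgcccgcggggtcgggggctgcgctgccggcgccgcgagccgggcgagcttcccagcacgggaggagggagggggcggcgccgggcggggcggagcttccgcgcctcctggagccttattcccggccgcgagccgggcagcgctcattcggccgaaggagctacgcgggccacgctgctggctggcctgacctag
BTC (chr4:74794474-74794773, minus strand): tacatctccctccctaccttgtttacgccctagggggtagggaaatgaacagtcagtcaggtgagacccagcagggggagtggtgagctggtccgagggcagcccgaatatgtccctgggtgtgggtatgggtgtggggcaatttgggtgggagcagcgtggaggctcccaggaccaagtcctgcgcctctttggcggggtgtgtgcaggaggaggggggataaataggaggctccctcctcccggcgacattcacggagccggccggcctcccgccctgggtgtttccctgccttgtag
ERBB2 (chr17:39687844-39688143, plus strand): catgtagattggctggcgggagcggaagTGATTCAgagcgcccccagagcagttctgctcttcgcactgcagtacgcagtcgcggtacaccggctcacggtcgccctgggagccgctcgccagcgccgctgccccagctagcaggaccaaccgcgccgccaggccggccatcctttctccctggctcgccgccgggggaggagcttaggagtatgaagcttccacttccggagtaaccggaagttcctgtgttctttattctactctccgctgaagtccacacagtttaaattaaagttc
EGFR (chr7:55018767-55019066, plus strand): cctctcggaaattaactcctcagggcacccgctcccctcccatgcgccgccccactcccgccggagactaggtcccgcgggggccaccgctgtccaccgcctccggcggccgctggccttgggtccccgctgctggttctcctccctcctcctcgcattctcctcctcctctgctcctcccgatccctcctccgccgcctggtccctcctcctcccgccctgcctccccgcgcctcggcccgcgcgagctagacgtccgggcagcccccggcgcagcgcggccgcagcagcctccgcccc

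Both strands of each promoter were searched for the octamer ATGCAAAT that POU2F factors bind and for GGAATG, bound by TEAD factors. They were also searched for TGANTCA, a loose pattern that takes in the sites bound by AP-1. The table of RefSeq promoters used here matched 8 of the 10 genes, and EGFR and TGFA had entries for more than 1 start. Not matched were ERBB3 and NRG1. The octamer was in 0 of the entries of the 8 genes and in 1.77% of all 35116 promoters. TGANTCA lay 222 bases before the start in ERBB2, where it reads TGATTCA, and was in 7.71% of all promoters. The GGAATG motif, found in 4928 of the 35116 promoters, was in the EREG promoter and in that of a second EGFR start, which also held TGANTCA at 2 positions. The tables do not give RNA by start site, so the values below cannot be assigned to one promoter of a gene.

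Expression is given as FPKM, fragments scaled to transcript length and to the number of mapped fragments, so levels can be compared between genes. The authors deposited 1 sgPOU2F3 value per line for the 2 guides, which carries no spread between guides. Steps between low values put the depth at about 18.6 to 30.9 M fragments in the combined sgPOU2F3 columns, 9.66 to 15.4 M in the sgNeg columns and 10.02 to 32.1 M in the parental libraries. At these depths 3 fragments on a transcript of 2 kb correspond to 0.0485 to 0.0808 FPKM in sgPOU2F3 and to 0.0972 to 0.155 FPKM in sgNeg, so values in that range are at the edge of detection and are more easily listed above 0 in sgPOU2F3. POU2F3, the targeted gene, was at 21.3 FPKM in NCI-H211 sgPOU2F3 against 307 in sgNeg, at 60.8 against 198 in NCI-H1048, at 204 against 501 in NCI-H526 and at 218 against 272 in COR-L311. In these bulk samples, fewer cells with a transcript and less of it per cell cannot be told apart. In the parental table it was at 188.6 to 387.4 FPKM in these 4 lines and at most 0.608 FPKM in the 10 others.

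Among the receptors, ERBB2 was higher in sgPOU2F3 than in sgNeg in 4 of 4 lines, and by far the most in NCI-H211. It was at 50.7 FPKM in NCI-H211 sgPOU2F3 against 12.4 FPKM in sgNeg, which is 4.10-fold. In NCI-H1048 it was at 16.2 FPKM in sgPOU2F3 and 9.82 FPKM in sgNeg, in COR-L311 at 7.77 and 5.85 FPKM, and in NCI-H526 at 4.13 and 3.47 FPKM, in the same order. The levels of the arms overlap across lines, and the ratio within each line is what is compared. The mean log2 ratio, on the scale of log2(FPKM + 1), was 0.79 ± 0.80 (SD, n = 4 lines), and it did not pass the test over all genes (limma, unadjusted p = 0.033, adjusted p = 0.41). Without NCI-H211 it was 0.41. All 4 lines had the same sign in 22.7% of the tested genes.

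EGFR RNA was present in NCI-H1048 alone among the knockout lines, and there it was lower after knockout. It was at 10.4 FPKM in NCI-H1048 sgPOU2F3 against 30.9 FPKM in sgNeg, 33.6% of the control, with a log2 ratio of -1.49. That ratio was the 53rd lowest of 12460 genes in the line. In COR-L311 and NCI-H211 it was listed at 0 in both arms, and in NCI-H526 at 0 in sgPOU2F3 and 0.0111 FPKM in sgNeg. With EGFR lower and ERBB2 higher, the leading receptor RNA in NCI-H1048 was ERBB3 in sgPOU2F3 (47.8% of the summed receptor FPKM) and EGFR in sgNeg (42.6%).

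ERBB3, the receptor with the highest RNA in 6 of the 8 columns, stayed within 2-fold in each line. It was at 26.4 FPKM in NCI-H1048 sgPOU2F3 and 29.04 FPKM in sgNeg, at 14.2 FPKM in both arms of NCI-H526, and at 13.1 and 12.4 FPKM in sgPOU2F3 and sgNeg of COR-L311. NCI-H211 stood apart, with 24.5 FPKM in sgPOU2F3 against 36.7 FPKM in sgNeg. The mean log2 ratio was -0.15 ± 0.29 (SD, n = 4 lines, limma adjusted p = 0.65). ERBB4 was low throughout, at 0.865 FPKM in NCI-H211 sgPOU2F3 against 2.24 FPKM in sgNeg, and at 0.280 to 2.37 FPKM in the sgPOU2F3 columns and 0.179 to 2.66 FPKM in the sgNeg columns of the other lines. Its mean log2 ratio was -0.22 ± 0.40 (SD, n = 4 lines, limma adjusted p = 0.65).

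**Figure D1:**
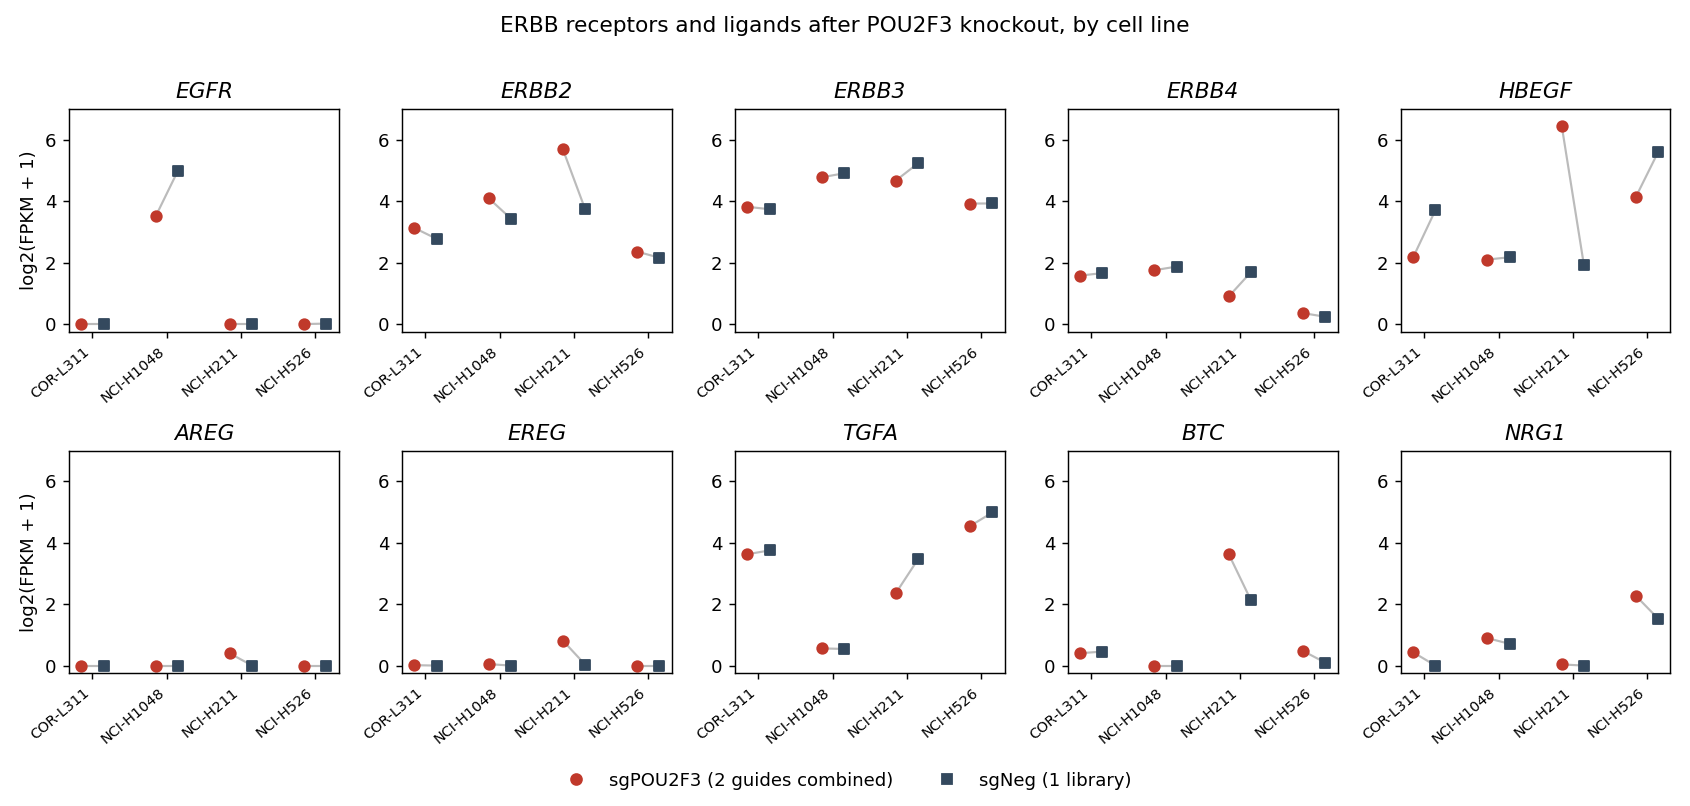
Each panel plots 1 gene as log2(FPKM + 1) in the 4 lines, with the combined sgPOU2F3 value as a red circle joined to the sgNeg value as a dark square. HBEGF spans the widest gap, at 87.4 FPKM in sgPOU2F3 of NCI-H211 against 2.77 FPKM in sgNeg, and EGFR is above 1 FPKM in NCI-H1048 alone.

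HBEGF, the heparin-binding ligand of EGFR and ERBB4, stood on opposite sides of its control in different lines. It was at 87.4 FPKM in NCI-H211 sgPOU2F3 against 2.77 FPKM in sgNeg, 31.6-fold higher. It was at 16.7 FPKM in NCI-H526 sgPOU2F3 against 47.8 FPKM in sgNeg (35.0% of the control), and at 3.50 FPKM in COR-L311 sgPOU2F3 against 12.1 FPKM in sgNeg (29.02%). In NCI-H1048 the values were 3.29 FPKM in sgPOU2F3 and 3.52 FPKM in sgNeg. HBEGF was thus lower in sgPOU2F3 in 3 of 4 lines, past 2-fold in the 2 lines harvested on day 5, which had the highest HBEGF in sgNeg. The log2 ratio in NCI-H211, 4.55, was the 29th highest of 12335 genes in that line, while -1.54 in COR-L311 was the 25th lowest of 12204 and -1.46 in NCI-H526 the 5th lowest of 12506. Across lines the mean was 0.37 ± 2.87 (SD, n = 4 lines, limma adjusted p = 0.90), and without NCI-H211 it was -1.02 (adjusted p = 0.51), so NCI-H211 alone sets its sign. With a single value for each arm, the difference between lines has no test.

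BTC, betacellulin, was at 11.4 FPKM in NCI-H211 sgPOU2F3 against 3.35 FPKM in sgNeg, 3.39-fold higher. In the other lines it was at most 0.391 FPKM in sgPOU2F3 and at most 0.372 FPKM in sgNeg, and it was listed at 0 in both arms of NCI-H1048. It was above 1 FPKM in 2 of the 8 columns, fewer than the test required.

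TGFA, transforming growth factor alpha, was lower in sgPOU2F3 than in sgNeg in 3 of 4 lines. It was at 4.12 FPKM in NCI-H211 sgPOU2F3 against 10.0 FPKM in sgNeg (41.0%), at 22.3 against 30.7 FPKM in NCI-H526 (72.8%) and at 11.3 against 12.5 FPKM in COR-L311 (91.1%). NCI-H1048 had 0.474 FPKM in sgPOU2F3 and 0.456 FPKM in sgNeg. The mean log2 ratio was -0.41 ± 0.50 (SD, n = 4 lines) and did not pass (limma, unadjusted p = 0.085, adjusted p = 0.47). In NCI-H211, TGFA was therefore lower in the same comparison in which HBEGF and BTC were higher.

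AREG and EREG, amphiregulin and epiregulin, were close to the limit of detection. AREG was at 0.314 FPKM in NCI-H211 sgPOU2F3 and listed at 0 in the other 7 columns. EREG was at 0.759 FPKM in NCI-H211 sgPOU2F3 against 0.0217 FPKM in sgNeg, and at most 0.0339 FPKM in any column of the other lines. The sgNeg value of EREG lies below 3 fragments on a transcript of 2 kb, so no fold change is given. NCI-H211 sgPOU2F3 was the column with the highest AREG, EREG, BTC and HBEGF among the 8.

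NRG1, the neuregulin that binds ERBB3 and ERBB4, was higher in sgPOU2F3 in 4 of 4 lines at low levels. It was at 3.82 FPKM in NCI-H526 sgPOU2F3 against 1.87 FPKM in sgNeg, at 0.858 against 0.633 FPKM in NCI-H1048, at 0.350 FPKM against a listed 0 in COR-L311 and at 0.0264 FPKM against a listed 0 in NCI-H211. The last value is below the limit given above. The mean log2 ratio was 0.35 ± 0.31 (SD, n = 4 lines). NRG1 was above 1 FPKM in 2 of the 8 columns and was not tested.

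**Figure D2:**
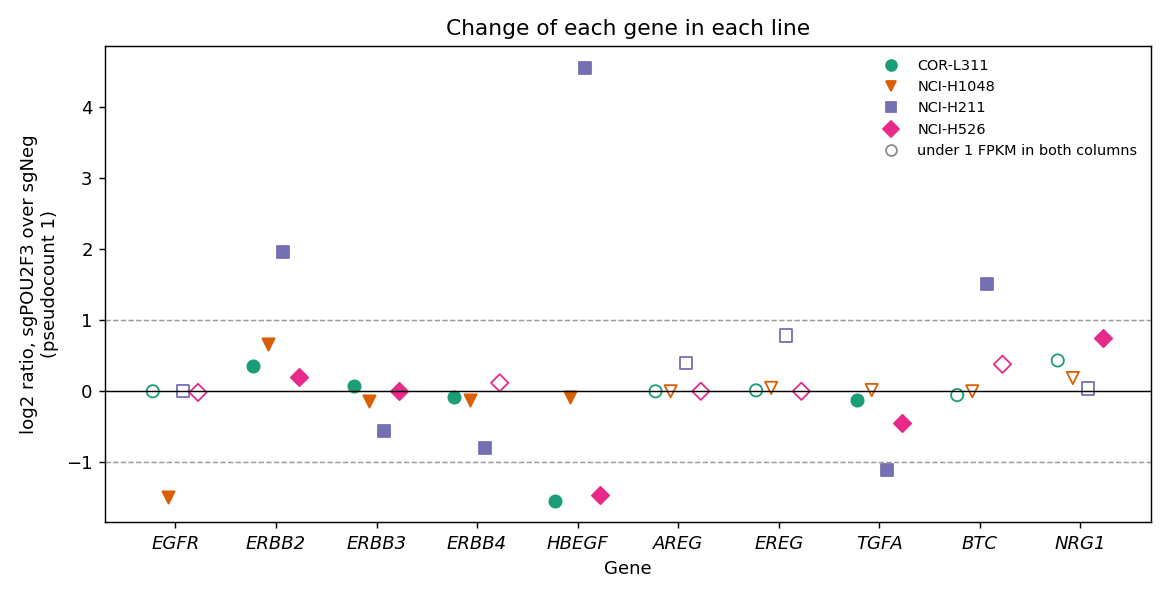
The log2 ratio of sgPOU2F3 over sgNeg (pseudocount 1) is plotted for each gene and line, dashed lines mark 2-fold, and open symbols are pairs under 1 FPKM in both columns. NCI-H211 holds 4 of the 7 points past 2-fold, and HBEGF lies on opposite sides in NCI-H211 (4.55) and in COR-L311 (-1.54) and NCI-H526 (-1.46).

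Genes were also counted by size alone, on the scale of log2(FPKM + 1), where at least 1 FPKM was reached in 1 of the columns of a line. In NCI-H211, 4 of 6 members were past 2-fold, where 11.7% of genes were. HBEGF, ERBB2 and BTC were higher (6.86% of genes were 2-fold higher) and TGFA was lower (4.83% of genes). In COR-L311, 1 of 5 members was past 2-fold (HBEGF, lower; 2.12% of genes were 2-fold lower, 4.28% were higher and 6.4% were past 2-fold in either direction). In NCI-H1048 it was 1 of 5 (EGFR, lower; 1.03% of genes, with 1.2% higher and 2.22% in either direction), and in NCI-H526 1 of 5 (HBEGF, lower; 0.496% of genes, with 2.05% higher and 2.54% in either direction). A member counted this way passed through the arm in which it is high, so these counts describe the members and test nothing. Without the added 1, ERBB4 in NCI-H211 (38.7% of sgNeg) and NRG1 in NCI-H526 (2.04-fold higher) would also be past 2-fold. In the fit across lines, 5 of the 10 members had enough expression to be tested, 0 passed (limma, adjusted p under 0.05; 0.0161% of 12387 genes did) and 1, ERBB2, had an unadjusted p under 0.05, as did 11.8% of all genes. The median log2 ratio of the 5 was -0.15, beside -0.02 over all tested genes. POU2F3 itself, the targeted gene, was lower in 4 of 4 lines and did not pass this fit either. Its mean log2 ratio was -1.77 ± 1.46 (SD, n = 4 lines, limma, unadjusted p = 0.012, adjusted p = 0.40). A gene that did not pass therefore cannot be called unchanged.

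Summed over the EGFR ligands, the RNA was at 104 FPKM in NCI-H211 sgPOU2F3 against 16.2 FPKM in sgNeg. HBEGF made up 84.1% of the sum in sgPOU2F3, whereas TGFA led in sgNeg with 62.1%. The sum was lower in sgPOU2F3 in NCI-H526, at 39.4 against 78.5 FPKM, and in COR-L311, at 15.2 against 24.9 FPKM. In NCI-H526 the leading ligand was TGFA in sgPOU2F3 (56.6%) and HBEGF in sgNeg (60.8%). In COR-L311 TGFA led in both arms, with 74.8% in sgPOU2F3 and 50.04% in sgNeg. NCI-H1048, the only one of these lines with EGFR RNA above 1 FPKM, had the lowest ligand sums, 3.80 FPKM in sgPOU2F3 and 3.97 FPKM in sgNeg. In NCI-H211, where ligand RNA was highest after knockout, EGFR was listed at 0 and ERBB2 was the leading receptor in sgPOU2F3, with 66.7% of the receptor sum, in place of ERBB3 with 71.6% in sgNeg.

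**Figure D3:**
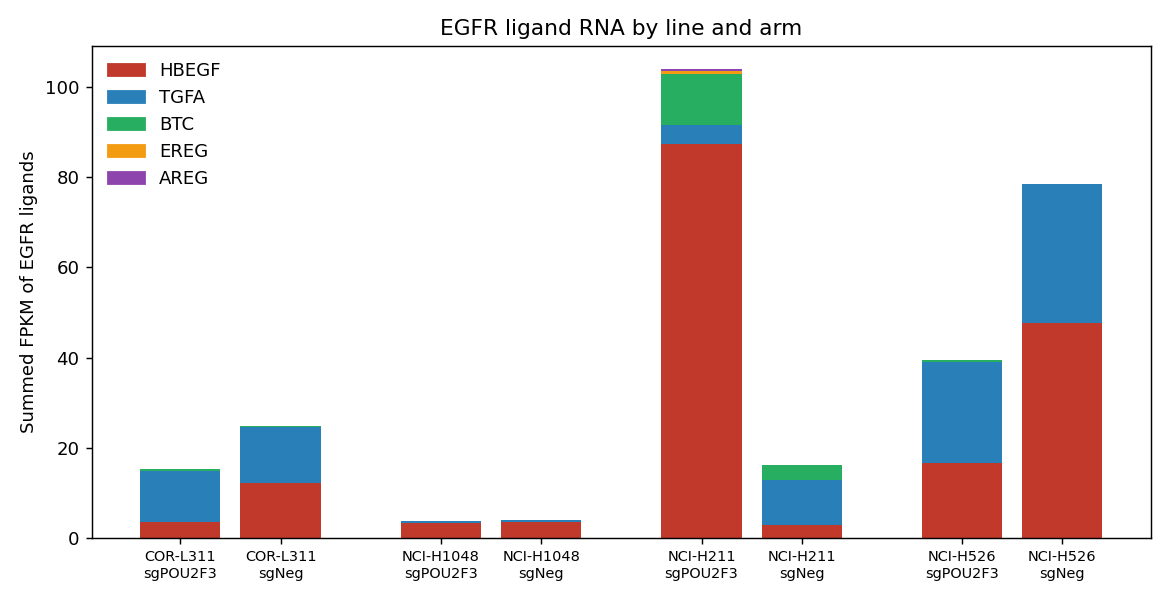
Bars show the summed FPKM of 5 EGFR ligands in the sgPOU2F3 and sgNeg columns of each line, coloured by ligand. The NCI-H211 sgPOU2F3 bar reaches 104 FPKM and is mostly HBEGF, while the sgPOU2F3 bars of COR-L311 and NCI-H526 are shorter than their sgNeg bars.

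Since each arm of a line has 1 value, the parental library of the same line gives the only other measurement of unedited cells, from another culture, without infection and from a table scaled separately. Over the 21 pairs with at least 1 FPKM in either library, sgNeg and parental were compared on the scale of log2(FPKM + 1). The log2 ratio of sgNeg over parental ranged from -0.61 to 0.98, with a median size of 0.44 and 0 of 21 past 2-fold on that scale. Over all genes, 5.77% were past 2-fold in this comparison in NCI-H211, 5.67% in NCI-H526, 7.35% in COR-L311 and 5.01% in NCI-H1048. The 3 widest differences were in NCI-H211, where TGFA was at 10.0 FPKM in sgNeg and 4.601 FPKM in the parental library, ERBB4 at 2.24 and 0.915 FPKM and ERBB2 at 12.4 and 6.95 FPKM, followed by TGFA in NCI-H526, at 30.7 and 18.7 FPKM. On plain FPKM, without the added 1, ERBB4 and TGFA in NCI-H211 were past 2-fold, with sgNeg at 245% and 218% of the parental level.

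Set against the parental library in place of sgNeg, the genes that were lower in NCI-H211 sgPOU2F3 were close to the uninfected level. TGFA was at 4.12 FPKM in sgPOU2F3 and 4.601 FPKM in parental cells (log2 ratio -0.13, in place of -1.11), ERBB4 at 0.865 and 0.915 FPKM, and ERBB3 at 24.5 and 23.6 FPKM. The genes that were higher stayed past 2-fold: HBEGF was at 87.4 FPKM in sgPOU2F3 and 2.69 FPKM in parental cells, ERBB2 at 50.7 and 6.95 FPKM, and BTC at 11.4 and 2.19 FPKM. EGFR in NCI-H1048 was at 10.4 FPKM in sgPOU2F3 and 35.2 FPKM in parental cells, and HBEGF at 16.7 and 36.1 FPKM in NCI-H526 and at 3.50 and 15.1 FPKM in COR-L311. ERBB2 in NCI-H1048, at 16.2 FPKM in sgPOU2F3, was past 2-fold only against the parental library (6.97 FPKM). In NCI-H526 the direction turned, with ERBB2 at 4.13 FPKM in sgPOU2F3 and 5.69 FPKM in parental cells (log2 ratio -0.38), so ERBB2 was higher than in parental cells in 3 of 4 lines. TGFA also turned, at 113.5% of the parental level in COR-L311 sgPOU2F3 and 119.1% in NCI-H526 sgPOU2F3, and was lower than in parental cells in NCI-H211 alone. Markers of other cell types and states also differed in NCI-H211, and some of them in the other lines. The 4 fibroblast markers summed to 14.3 FPKM in sgPOU2F3, 8.16 FPKM in sgNeg and 2.73 FPKM in parental cells, with 0 of the 4 at 0 in any of them, but went opposite ways. LUM carried the higher sum, at 12.3 FPKM in sgPOU2F3 against 0.101 FPKM in sgNeg, and COL1A1 was at 1.24 against 0.486 FPKM, whereas DCN was at 0.537 against 7.26 FPKM and COL1A2 at 0.208 against 0.313 FPKM. YAP1, a marker of another subtype of this cancer, was at 56.0 FPKM in sgPOU2F3, 1.33 FPKM in sgNeg and 0.824 FPKM in parental cells. The neuroendocrine marker INSM1 was at 1.24 FPKM in sgPOU2F3 against 5.93 FPKM in sgNeg, and the sum over the 3 neuroendocrine markers was 1.93 against 6.61 FPKM. INSM1 carried most of that sum. SYP went the other way, at 0.611 against 0.517 FPKM, and CHGA was near the limit of detection, at 0.0878 against 0.157 FPKM. The 4 immune markers summed to 1.65 FPKM in sgPOU2F3 and 3.001 FPKM in sgNeg, and the 3 endothelial markers to 0.373 and 0.0337 FPKM. In the other lines, NEUROD1 was at 13.8 FPKM in COR-L311 sgPOU2F3 against 0.173 in sgNeg and at 11.6 against 0.107 in NCI-H526. It was listed at 0 in both arms of NCI-H1048 and NCI-H211. INSM1 was higher in COR-L311 (165 against 50.7 FPKM) and NCI-H526 (138 against 80.7) but lower in NCI-H1048 (1.46 against 4.90). In each of these lines 1 other neuroendocrine marker went against INSM1. In COR-L311 CHGA was lower (32.6 against 48.8 FPKM) and SYP higher (46.7 against 35.8). In NCI-H526 SYP was lower (68.3 against 78.3) and CHGA was at 56.3 against 55.2. In NCI-H1048 SYP was at 1.05 against 0.804 and CHGA at a listed 0 against 0.235. YAP1 was at 27.6 against 14.6 FPKM in NCI-H1048 and below 1 FPKM in both arms of COR-L311 and NCI-H526. The part of these markers in the results was not tested.

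**Figure D4:**
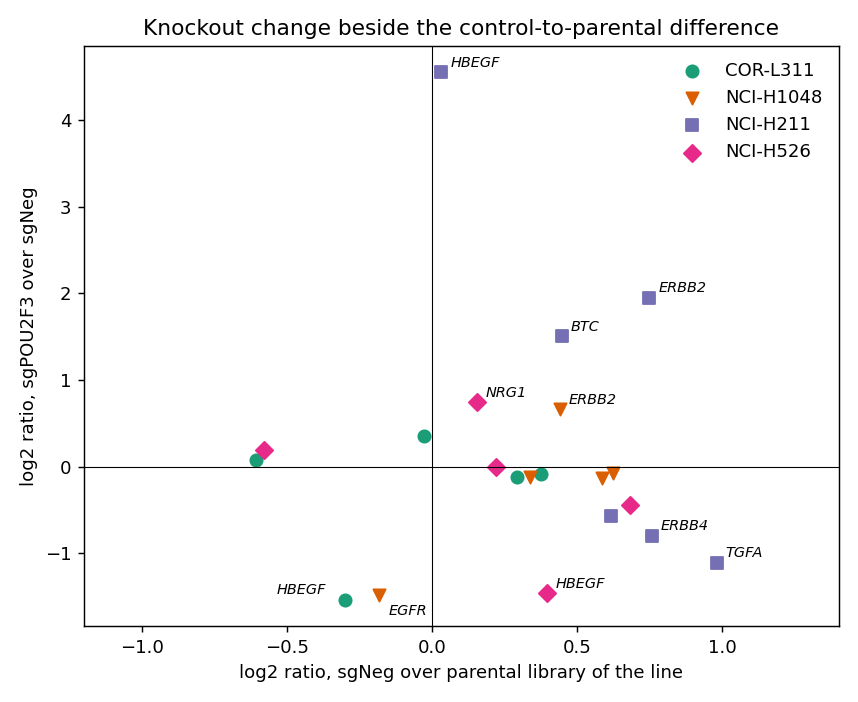
For pairs with at least 1 FPKM in sgPOU2F3 or sgNeg, the log2 ratio of sgPOU2F3 over sgNeg (y axis) is plotted against that of sgNeg over the parental library of the line (x axis). TGFA and ERBB4 of NCI-H211 lie at the lower right, with sgNeg above parental by 0.98 and 0.76, whereas HBEGF of NCI-H211 is at 4.55 on the y axis and 0.03 on the x axis.

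The parental lines were compared to see how ERBB expression differs between the 4 lines used for knockout, all with POU2F3 RNA, and the 10 others. ERBB3 had the largest difference of the 7 members tested. It was at 23.6 FPKM in NCI-H211, 19.3 in COR-L311, 19.0 in NCI-H1048 and 12.1 in NCI-H526, against a lowest, median and highest value of 0.0727, 1.14 and 14.8 FPKM in the others. NCI-H510 (14.8 FPKM) and NCI-H128 (12.6 FPKM) overlapped with the 4 lines, and 5 of the 10 others were below 1 FPKM. The log2 difference was 2.44 (SE 0.68), which did not pass over all genes (limma, unadjusted p = 0.0023, adjusted p = 0.20).

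ERBB2 was the only receptor above 1 FPKM in 14 of 14 lines, with 5.69 to 6.97 FPKM across the 4 lines against 1.19 to 28.4 FPKM, median 4.17, in the others. DMS114 had the 28.4 FPKM, and NCI-H524 came next among the others with 6.80 FPKM. The log2 difference was 0.36 (SE 0.52, limma adjusted p = 0.90). EGFR was at 35.2 FPKM in NCI-H1048, the highest of the 14 lines, and listed at 0 in COR-L311, NCI-H211 and NCI-H526. Among the others DMS79 had 9.13, NCI-H510 7.42, NCI-H128 1.91 and DMS114 1.06 FPKM, and the remaining lines were at most 0.326 FPKM. The EGFR difference of 0.32 (SE 0.91, limma adjusted p = 0.96) came from 1 line, and without NCI-H1048 it was -0.98. ERBB4 had 0.0664 to 1.90 FPKM across the 4 lines, against 7.40, 7.20 and 4.43 FPKM in NCI-H446, NCI-H146 and NCI-H69, the highest of the others (difference -0.03, SE 0.65, limma adjusted p = 0.99). NCI-H446 and NCI-H69 had the lowest ERBB2, at 1.27 and 1.19 FPKM, while NCI-H146 had 5.76 FPKM.

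HBEGF and TGFA were each highest in NCI-H526. HBEGF was at 36.1 FPKM there, 15.1 in COR-L311, 2.69 in NCI-H211 and 1.93 in NCI-H1048, against 0.679 to 10.99 FPKM in the others, median 2.20 (log2 difference 1.32, SE 0.67, limma adjusted p = 0.62). TGFA was at 18.7 FPKM in NCI-H526, 9.99 in COR-L311, 4.601 in NCI-H211 and 0.265 in NCI-H1048, against a listed 0 to 12.99 FPKM in the others, median 0.550 (log2 difference 1.44, SE 0.82, limma adjusted p = 0.68). With 1 library per line the order of neighbours has no estimate of error and is uncertain. On the scale of log2(FPKM + 1), sgNeg and parental libraries of 1 line differed by up to 0.98. NRG1 had a difference below 0, with 1.59 FPKM in NCI-H526, 0.846 in NCI-H1048 and a listed 0 in COR-L311 and NCI-H211, against 0.106 to 9.67 FPKM in the others, median 1.88, with NCI-H146 highest (log2 difference -0.99, SE 0.55, limma adjusted p = 0.66).

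BTC was at 2.19 FPKM in NCI-H211, 0.262 in NCI-H526, 0.114 in COR-L311 and a listed 0 in NCI-H1048, and at most 1.15 FPKM, in DMS79, among the others. AREG and EREG were at most 0.323 and 0.307 FPKM, both in DMS79, and were listed at 0 in 10 and 7 of the 14 lines. Of the 10 members, 7 were tested and 0 passed, where 0.25% of 13226 genes did (0.212% higher and 0.0378% lower), and 1, ERBB3, had an unadjusted p under 0.05, as did 8.66% of all genes. The 4 lines and the 10 others overlapped for each of the 7 tested members, while 0.65% of the tested genes did not overlap. They also overlapped for BTC, AREG and EREG, which were too low to be tested. The median difference of the 7 was 0.36, beside -0.003 over all tested genes.

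**Figure D5:**
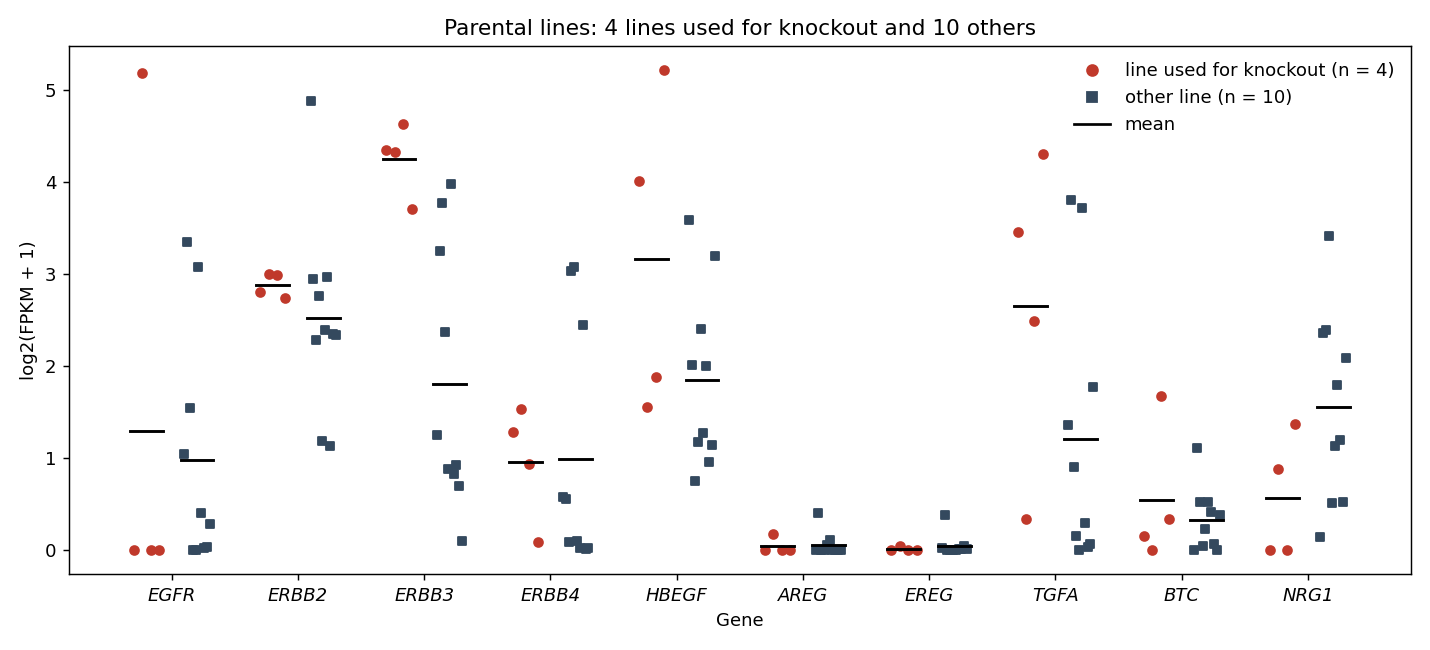
Each point is 1 parental line, as log2(FPKM + 1), with the 4 lines used for knockout as red circles, the 10 others as dark squares and the mean of each group as a bar. ERBB3 sits higher in the 4 lines with overlap, EGFR in the 4 lines comes from NCI-H1048 alone, and DMS114 is the high ERBB2 point among the others, at 28.4 FPKM.

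Genes around the receptors were taken from lists of other ligands, sheddases, adaptors, feedback inhibitors and ERK response genes. None of the genes in these lists passed in either comparison (limma). Those with an unadjusted p under 0.05 are counted here, beside 11.8% of all genes after knockout and 8.66% between parental lines. In the neuregulin list 1 of 2 tested genes had one, NRG2, a ligand of ERBB3 and ERBB4, which was lower in 4 of 4 lines. NRG2 was at 7.12 FPKM in COR-L311 sgPOU2F3 against 12.2 in sgNeg, at 8.01 against 10.8 in NCI-H526, at 0.863 against 1.75 in NCI-H1048 and at 0.348 against 1.63 in NCI-H211. Its mean log2 ratio was -0.65 ± 0.24 (SD, n = 4 lines, limma, unadjusted p = 0.0034, adjusted p = 0.38). NRG4 stood at -0.36 ± 0.36 (SD, n = 4 lines). EGF, the founding ligand of EGFR, was at 1.84 FPKM in NCI-H1048 sgPOU2F3 and 1.79 FPKM in sgNeg and at most 0.0834 FPKM in the other lines.

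In the sheddase list 1 of 8 tested genes had an unadjusted p under 0.05 after knockout, BACE1, a protease that can cut neuregulins, at 0.34 ± 0.30 on the log2 scale (SD, n = 4 lines). ADAM9 stood at 0.45 ± 0.64. The median of the list was 0.16. In NCI-H211, where 11.7% of all genes were past 2-fold, 2 of 8 were. These were RHBDF1, a partner of ADAM17, at 14.5 FPKM in sgPOU2F3 against 2.76 in sgNeg, and ADAM9 at 58.5 against 22.0 FPKM. In the feedback list 1 of 16 tested genes had an unadjusted p under 0.05 (limma), beside 11.8% of all genes. It was CBLB, a ubiquitin ligase that helps remove active receptors, at 0.55 ± 0.37 (higher in 4 of 4 lines), followed by LRIG3 at 0.37 ± 0.30. ERRFI1, an inhibitor of ERBB kinases induced by their signaling, was at 17.2 FPKM in NCI-H211 sgPOU2F3 against 3.61 in sgNeg. It was the 1 of 15 in the feedback list past 2-fold in that line, beside the same 11.7% of all genes. RHBDF1 and ERRFI1 are named after their values were seen. In the adaptor list 1 of 17 had an unadjusted p under 0.05 (limma), beside 11.8% of all genes. It was SRC at 0.28 ± 0.16, followed by SOS2 at 0.29 ± 0.31, and the median of the list was -0.003.

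Of the ERK response genes, 10 of 19 in NCI-H211 were 2-fold or more higher and 1 lower, beside 6.86% and 4.83% of all genes. In COR-L311, 3 were higher and 1 lower of 15, beside 4.28% and 2.12% of all genes. In NCI-H1048, 2 were higher and 1 lower of 20, beside 1.2% and 1.03%. In NCI-H526, 1 was higher and 0 lower of 14, beside 2.05% and 0.496%. The list's median log2 ratio was 1.02 in NCI-H211, -0.28 in COR-L311, -0.10 in NCI-H1048 and -0.19 in NCI-H526. Across lines PHLDA1 stood at 1.18 ± 0.55 (SD, n = 4 lines, limma, unadjusted p = 0.0014, adjusted p = 0.33) and FOS at 0.84 ± 0.79, and 3 of 18 tested genes had an unadjusted p under 0.05, beside 11.8% of all genes. In the parental comparison SPRY2, an inhibitor of receptor signaling that ERK induces, had 4.28 to 26.2 FPKM across the 4 lines and 0.107 to 4.83 FPKM in the others (log2 difference 2.25, SE 0.55, limma adjusted p = 0.11), and SPRY1 at 6.12 to 13.1 FPKM against 0.105 to 7.82 FPKM (1.80, SE 0.45, limma adjusted p = 0.13). In that comparison 3 of 19 tested ERK response genes had an unadjusted p under 0.05 (limma), of which SPRY2 and SPRY1 had the smallest. It was 1 of 19 in the adaptor list, NCK2 (1.49), and 1 of 16 in the feedback list, EPS15 (-0.91). The sheddase list had 0 of 8 and the neuregulin list 0 of 3, all beside 8.66% of all genes.

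Over the 14 parental lines, the genes whose log2(FPKM + 1) followed a member most closely were looked up among 13225 genes, as a description over lines that differ in depth and lineage. For ERBB3 they were ARHGEF19, the epithelial transcription factor gene GRHL2 and LAD1, with Pearson r of 0.94, 0.93 and 0.93 and Spearman rho of 0.82, 0.85 and 0.88. For EGFR they were the keratin gene KRT7 (r = 0.95, rho = 0.71), NAP1L2 (0.92, 0.60) and the collagen gene COL4A1 (0.88, 0.64). For TGFA they were SEMA4B (0.90, 0.82), RBBP8NL (0.88, 0.68) and the envoplakin gene EVPL (0.85, 0.82). For NRG1 they were the lipoprotein receptor gene VLDLR, ING4 and KCTD19, with r of 0.89 for each and rho of 0.87, 0.87 and 0.83. The closest for ERBB2 were TBC1D32 (0.85, 0.61), TEX261 (0.83, 0.39) and IRS4 (0.83, 0.82), with DMS114 far above the other lines in ERBB2. For ERBB4 they were PLD5 (0.84, 0.42), COL4A5 (0.82, 0.73) and TRPC4AP (0.82, 0.71), and for HBEGF HOXC12 (0.80, 0.57), SNX32 (0.79, 0.87) and SART1 (0.79, 0.57). Among the members themselves EGFR and AREG had r = 0.74 (rho = 0.54), and AREG and EREG had r = 0.90 (rho = 0.32). DMS79 had the highest AREG and EREG of the 14 lines and NCI-H1048 the next, all at most 0.323 FPKM.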

How the data were processed

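PolyA RNA libraries were measured by sequencing. The authors deposited 5 tables of FPKM, 1 per knockout line, with a combined sgPOU2F3 and a sgNeg column, and 1 of 14 parental libraries. Per the submitters' processing notes, TopHat2, Cufflinks, Cuffdiff and the build hg19 were used; versions, annotation and scaling across columns are not given in the sources used here. Values were taken as log2(FPKM + 1). Genes reaching 1 FPKM in 4 or more columns were kept. limma 3.58.1 (R 4.3.3), with a variance trend, was fitted to all genes with line and arm as terms (3 residual degrees of freedom), and to 4 against 10 parental lines, with Benjamini-Hochberg adjustment over all tested genes and a threshold of 0.05. The line is the unit of replication. Where lines are separate samples of a group, p-values measure the spread between lines. Within a line, genes past a log2 ratio of 1 were counted with no test.

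The members and gene lists were chosen with earlier results of these data known. All 10 members are named. From each list the 2 genes with the smallest p after knockout are named. In the parental comparison, list genes other than members are named only with an unadjusted p under 0.05 (limma), at most 2 per list. For members spanning at least 2 on the log2 scale, the 3 genes with the highest correlation are named. Depth was estimated from the spacing of low FPKM values of genes with 1 transcript over 2000 bases in GENCODE on GRCh38, another build than that of the tables. It is an estimate and covers counting error only. Both fits were first run on simulated data with known changes, and the share recovered is not given here. Alternatives were another pseudocount, filters, scaling, no trend and leaving out each line. Alternatives chosen after seeing the data were the parental library in place of sgNeg, centred ratios across lines, and leaving out DMS114 and DMS79 together. The guides were to be fitted singly, which combined columns do not allow.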

Additional observations from a re-analysis of the deposited data

Results flagged for a closer look

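A sample far from the rest of its group was found in 17 of 50 groups of 4 or 10 lines. AREG in sgNeg, at 0 in all 4 lines, could not be flagged. Chance gives about 1 in 20 for independent, normally distributed values. Most flags are genes near 0 in all lines but 1, and groups share values, so that rate cannot be set against the 17. No explanation was tested. NCI-H1048 stood apart for EGFR, at 10.4 FPKM in sgPOU2F3, 30.9 FPKM in sgNeg and 35.2 FPKM in parental cells, and in its log2 ratio of -1.49. NCI-H211 stood apart for BTC in sgPOU2F3 (11.4 FPKM). It did so for AREG in sgPOU2F3 (0.314 FPKM, log2 ratio 0.39) and for EREG in sgPOU2F3 (0.759 FPKM, log2 ratio 0.78) and in sgNeg (0.0217 FPKM). ERBB4 in NCI-H526 sgNeg was low, at 0.179 FPKM. Among the 4 parental lines used for knockout NCI-H1048 was apart for AREG (0.133 FPKM) and EREG (0.0320 FPKM). Among the 10 others DMS114 was apart for ERBB2 (28.4 FPKM), and DMS79 for AREG (0.323 FPKM), EREG (0.307 FPKM) and BTC (1.15 FPKM).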

How the results depend on the processing

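No member passed the threshold in either comparison under any alternative run, with adjusted p of 0.37 to 0.66 for ERBB2 after knockout and 0.095 to 0.40 for ERBB3 between parental lines. The number of members past 2-fold within a line was 2 in place of 1 in NCI-H1048 with the parental library in place of sgNeg, an alternative chosen after seeing the data. In NCI-H211 it was 4, with 5 at a pseudocount of 0.1 and 3 against the parental library, and in COR-L311 and NCI-H526 it was 1 under each alternative run. The sign of the mean turned for HBEGF after knockout (-1.02 to 1.01 leaving out 1 line, below 0 without NCI-H211). In the parental comparison it turned for EGFR (-0.98 to 0.75 leaving out 1 line, below 0 without NCI-H1048; -0.38 with a pseudocount of 0.1) and for ERBB4 (-0.22 to 0.26 leaving out 1 line, above 0 without NCI-H526, NCI-H146, NCI-H446 or NCI-H69; 0.58 with a pseudocount of 0.1; 0.12 with quantile normalization). The cause was not tested. With a filter at an FPKM of 5 some members gave no value. The knockout fit pairs sgPOU2F3 with sgNeg by line. By guide number, no paired analysis was possible because the 2 guides of a line were deposited as 1 combined column. Depth limits AREG, EREG and, in most lines, BTC and NRG1.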
